A study of Homo sapiens with 6 samples.

Results

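Fatty acid synthesis, desaturation and lipid storage was followed through 34 listed genes in crizotinib-resistant and control cultures of H3122, a lung adenocarcinoma cell line that carries an EML4-ALK fusion. Members were the rows of the deposited expression table whose gene name was on the list. That found 33 of the 34 among 51537 genes, and ACACA, the cytosolic acetyl-CoA carboxylase, is not analysed here. Of the 33, 32 passed the filter on low values, as did 16077 genes of the table. The remaining member, ELOVL4, which elongates very long chains, was listed at 0 in all 6 libraries.

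Poly(A) RNA was measured in 3 libraries of resistant cells and 3 libraries of control cells of the same line. Crizotinib inhibits the ALK and MET kinases. The resistant cells had been raised in crizotinib that was stepped up between 0.1 and 10 µM whenever death of cells ceased; the control cells are labelled only as control. The labels do not say whether the resistant line is 1 clone or whether the drug was in the medium at harvest, so lasting change and drug exposure cannot be told apart. Nor do they say that replicates were grown apart, so each p-value sets a difference against a spread between libraries that could be purely technical.

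Cytosolic citrate and acetate are turned into acetyl-CoA, which acetyl-CoA carboxylase and fatty acid synthase build into palmitate. Desaturases and elongases then alter the chain, acyl-CoA synthetases activate it, and the glycerolipid enzymes attach it to glycerol, ending in triglyceride stored in droplets. In epithelial cells much of this is under SREBP transcription factors, which leave the endoplasmic reticulum to be activated when sterols are low. Many carcinomas make fatty acids of their own.

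The libraries held an estimated 30854649 to 32465194 reads in resistant cells and 29854078 to 36692256 in control cells. Across genes, log2 values correlated at 0.9864 to 0.9888 within groups and 0.957 to 0.9597 between them. TPM, the unit of the table, is transcript abundance scaled by gene length so that every library has the same total. The 8 epithelial markers summed to 18459 to 19789 TPM in resistant libraries and 17792 to 18320 TPM in control libraries. Of the 6 adipocyte markers, 5 stayed under 1 TPM in all 6 libraries, and the defining genes ADIPOQ, FABP4 and ADRB3 were at 0; the list summed to 0.648 to 1.28 TPM in resistant and 0.482 to 0.625 TPM in control libraries. The 9 alveolar type 2 markers, 6 of them under 1 TPM throughout, summed to 22.3 to 26.8 TPM in resistant and 19.2 to 20.7 TPM in control libraries. Macrophage and lymphocyte markers (5 of 8 under 1 TPM, 1 at 0) summed to 6.75 to 9.13 TPM in resistant libraries against 4.55 to 5.04 TPM in control libraries. Fibroblast and endothelial markers (7 of 9 under 1 TPM, 2 at 0) summed to 6.07 to 7.49 TPM in resistant and 8.23 to 9.20 TPM in control libraries. The part of these lists in the results below was not tested.

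Members moved in both directions in the resistant cells. SREBF1, the gene of the SREBP-1 transcription factor, and SCD, the stearoyl-CoA desaturase, were lower, while ACLY, ACSS2 and ACSL5, which make acetyl-CoA or activate fatty acids, were higher. FASN, the fatty acid synthase, was 1.11 times its control level and the droplet coat gene PLIN2 gave no call. Genes were called at an adjusted p under 0.05 in limma, a linear model on log2(TPM + 1). Of the 32 tested members, 11 rose and 8 fell, 59.4% in all, beside 48.6% of all tested genes; of all tested genes, 24.0% were higher and 24.7% lower. Changes of at least 0.5 on the log2 scale were found in 5 members, 15.6%, beside 22.3% of all tested genes. The median absolute change was 0.226 among members and 0.272 among all tested genes, and the members' share of larger changes was not above the background. Summed over its members, desaturation and elongation held 1234 ± 52.5 TPM in resistant cells against 1750 ± 11.3 TPM in control cells (SD, n = 3 each), whereas supply and chain building held 1345 ± 30.0 TPM in resistant cells against 1147 ± 25.3 TPM in control cells. Transcription control held 97.0 ± 1.10 TPM in resistant cells against 166 ± 2.80 TPM in control cells. Glycerolipid assembly held 303 ± 7.28 TPM in resistant cells against 338 ± 4.70 TPM in control cells. Droplet genes, at 315 ± 11.8 TPM in resistant cells against 334 ± 12.3 TPM in control cells, had overlapping libraries. Activation, at 251 ± 19.9 TPM in resistant cells against 228 ± 17.2 TPM in control cells, overlapped too. All members together held 3545 ± 70.4 TPM in resistant cells against 3964 ± 62.5 TPM in control cells. The lower sums of desaturation and elongation and of all members rested on SCD. Without it, a sum added after seeing the data, desaturation and elongation held 398 ± 15.96 TPM in resistant cells against 375 ± 10.1 TPM in control cells, with overlapping libraries, and all members held 2709 ± 52.4 TPM in resistant cells against 2589 ± 65.0 TPM in control cells. In bulk RNA, fewer cells of a type and less RNA per cell cannot be told apart.

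**Figure D1:**
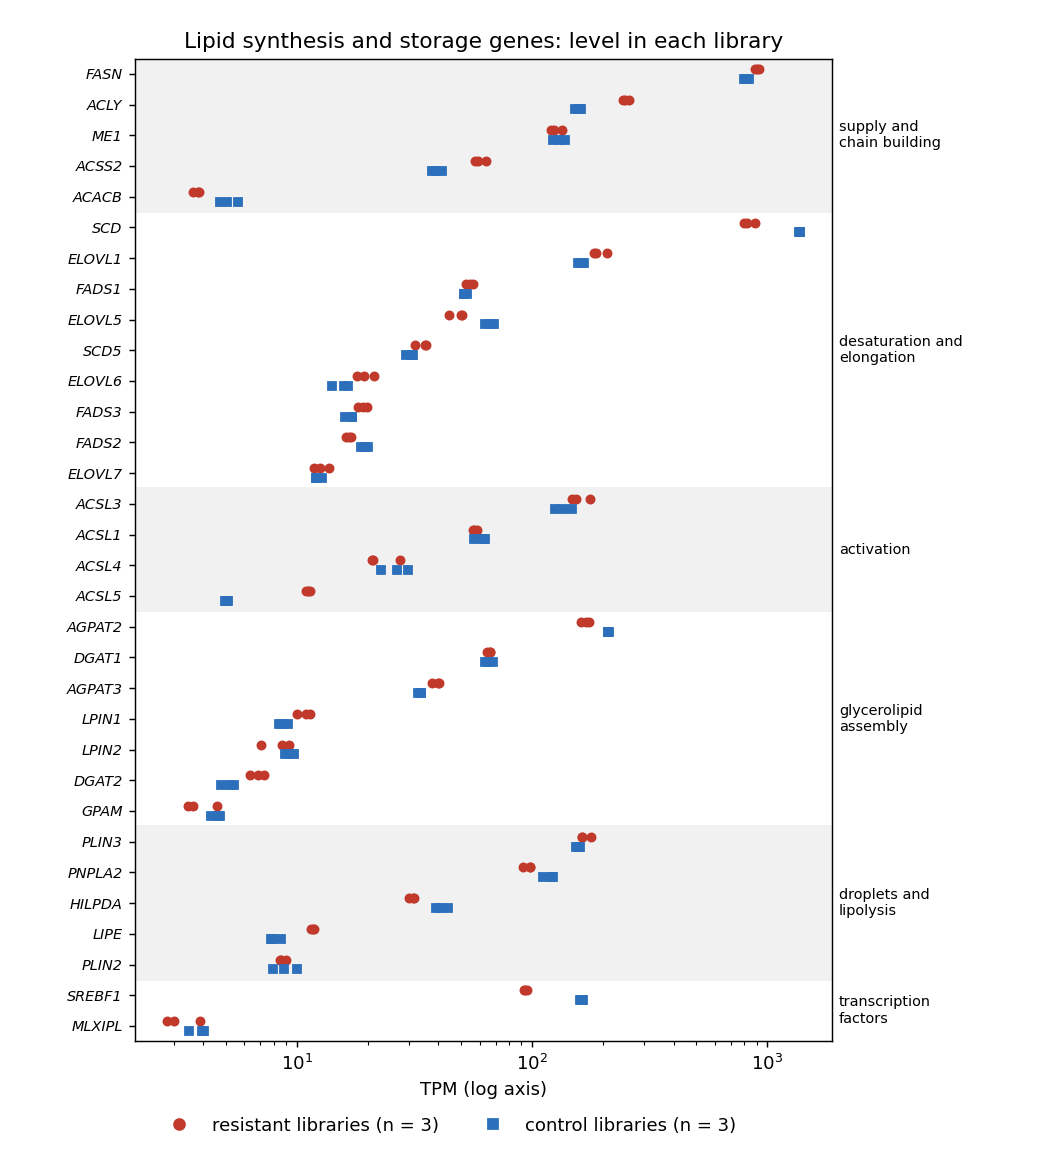
TPM (log axis) of the 32 tested members, grouped by role, with red circles for the 3 resistant libraries drawn above blue squares for the 3 control libraries. SCD and SREBF1 sit left of their control squares, ACLY, ACSS2 and ACSL5 right of theirs, and the PLIN2 symbols overlap.

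SREBF1 (ENSG00000072310, chromosome 17, 17810399 to 17837002, minus strand) had 92.2, 95.2 and 93.8 TPM in resistant libraries, against 160, 164 and 164 TPM in control libraries. All resistant libraries lay below all control libraries. How many of all tested genes keep their groups apart in this way was not counted. Non-overlap is therefore given here and below as description only. The means were 93.7 ± 1.51 and 163 ± 2.50 TPM (SD, n = 3 each), a log2 change of -0.79 ± 0.04 (SE) with an adjusted p of 7.23e-06 in limma. The other listed regulator, MLXIPL, the carbohydrate-response factor ChREBP, had 3.89, 2.997 and 2.81 TPM in resistant cells against 3.47, 4.04 and 3.98 TPM in control cells. The groups overlapped and MLXIPL was not called. Its log2 change was -0.20, and its chromosome 7 had a median of -0.285.

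Log2 changes in the text are resistant minus control. Among genes that supply and build the chain, 3 of 5 rose and 1 fell, 80% in all, beside 48.6% of all tested genes. Shares of so few genes, here and below, are description only. ACLY, ATP-citrate lyase (ENSG00000131473, chromosome 17, 41866908 to 41930542, minus strand), had 249, 259 and 244 TPM in resistant libraries, against 152, 158 and 161 TPM in control libraries. The groups did not overlap and the log2 change was 0.67 ± 0.04, adjusted p 2.51e-05. ACSS2, which makes acetyl-CoA out of acetate (ENSG00000131069, chromosome 20, 34872146 to 34927962, plus strand), had 63.6, 58.8 and 57.4 TPM in resistant cells against 37.7, 41.6 and 39.1 TPM in control cells, again without overlap. Its log2 change was 0.59 ± 0.06, adjusted p 1.58e-04 in limma. The median change of tested genes was 0.147 on chromosome 17, which also holds SREBF1, and 0.155 on chromosome 20.

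FASN (ENSG00000169710, chromosome 17, 82078333 to 82098332, minus strand) had 885, 923 and 904 TPM in resistant libraries, against 809, 798 and 837 TPM in control libraries. The groups did not overlap, yet the change was small, 0.15 ± 0.04 on the log2 scale with an adjusted p of 0.0111 in limma; genes of chromosome 17 had a median of 0.147. ACACB, the acetyl-CoA carboxylase of the mitochondrial surface, was lower, at 3.62, 3.84 and 3.81 TPM in resistant cells against 4.73, 5.07 and 5.61 TPM in control cells (log2 change -0.36, adjusted p 0.014 in limma), with no overlap; the call was lost without control replicate 3. ME1, malic enzyme, had 124, 135 and 120 TPM in resistant cells against 122, 139 and 132 TPM in control cells and overlapped.

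Of 9 tested desaturases and elongases, 3 rose and 3 fell, 66.7% in all, beside 48.6% of all tested genes. SCD (ENSG00000099194, chromosome 10, 100347124 to 100364834, plus strand) had 888, 822 and 798 TPM in resistant libraries, against 1382, 1363 and 1381 TPM in control libraries, with no overlap. The log2 change was -0.72 ± 0.05, adjusted p 2.52e-05, and the ratio of means 0.608. SCD and FASN ranked 119 and 106 among genes in resistant cells, but 67 and 128 in control cells, and SCD over FASN was 0.925 ± 0.0674 in resistant cells against 1.69 ± 0.0346 in control cells. SCD5, its paralogue, had 31.9, 35.6 and 35.1 TPM in resistant cells against 29.2, 31.3 and 30.8 TPM in control cells, without overlap but with an adjusted p of 0.052 in limma. The elongases went opposite ways. ELOVL5, acting on polyunsaturated chains, fell to 50.2, 49.8 and 44.3 TPM in resistant cells against 63.2, 67.1 and 69.2 TPM in control cells (log2 change -0.46, adjusted p 7.53e-04). ELOVL6, acting on palmitate, was at 21.3, 18.1 and 19.2 TPM in resistant cells against 14.2, 16.5 and 15.9 TPM in control cells (0.31, adjusted p 0.0166), and ELOVL1 rose to 187, 208 and 184 TPM in resistant cells against 157, 166 and 164 TPM in control cells. FADS2, the delta-6 desaturase, fell to 16.6, 17.0 and 16.3 TPM in resistant cells against 19.5, 18.8 and 20.1 TPM in control cells. The groups of ELOVL5, ELOVL6, ELOVL1 and FADS2 did not overlap. The FADS2 call was lost without resistant or control replicate 3 (adjusted p 0.0503 and 0.0596 in limma). FADS3, a desaturase of sphingoid bases, rose by 0.18 on the log2 scale (adjusted p 0.0433 in limma, a call lost when any 1 library was left out), at 19.97, 18.3 and 19.1 TPM in resistant cells against 17.2, 15.996 and 17.3 TPM in control cells, also without overlap. FADS1, the delta-5 desaturase, had 54.5 ± 1.88 TPM in resistant cells against 52.0 ± 0.893 TPM in control cells, and ELOVL7 had 12.7 ± 0.901 TPM in resistant cells against 12.3 ± 0.395 TPM in control cells; both overlapped and gave no call.

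**Figure D2:**
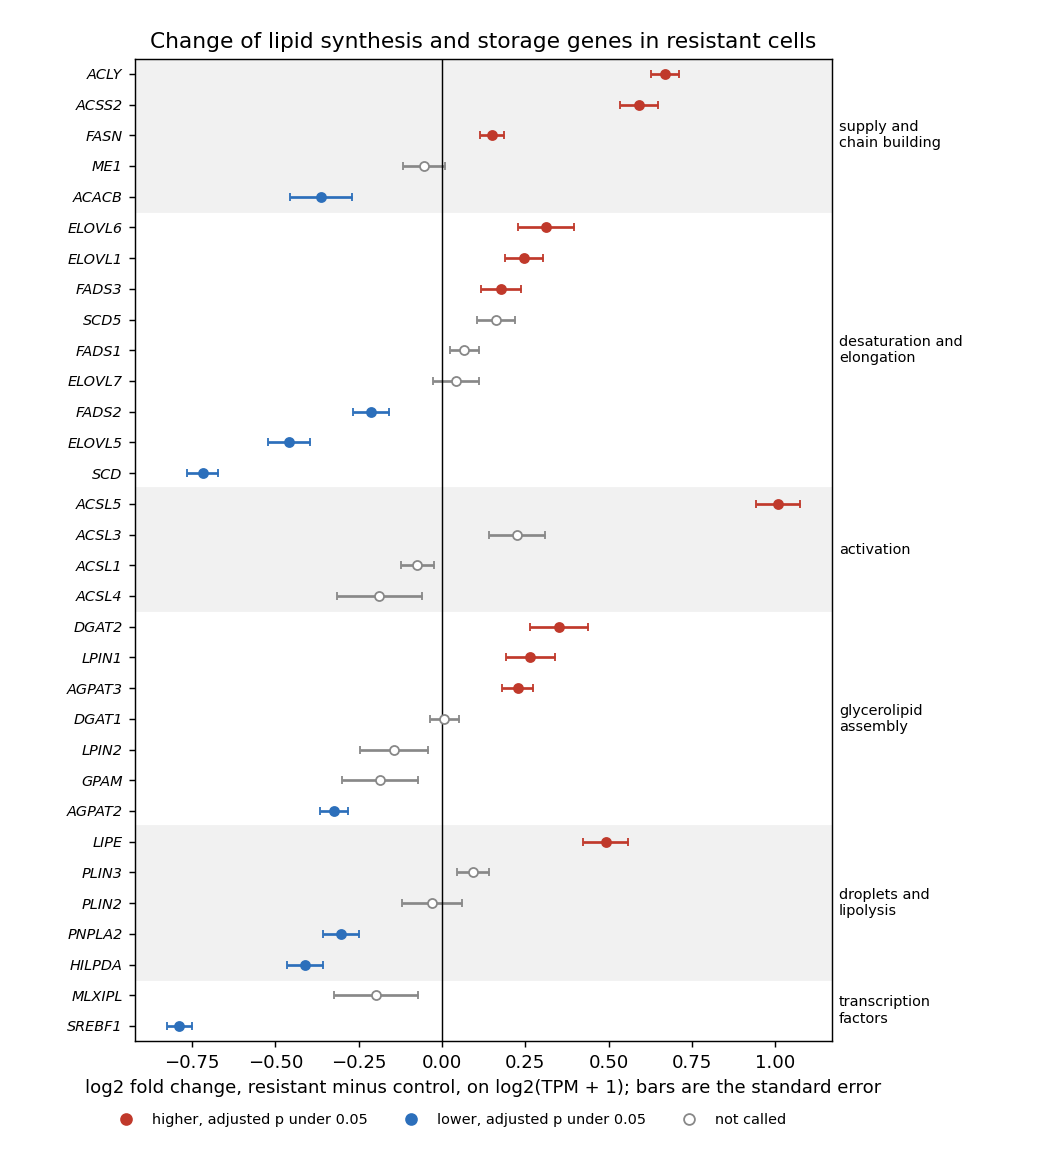
Difference in log2(TPM + 1) between resistant and control cells, with its standard error, for the 32 tested members grouped by role; filled points were called (red higher, blue lower) and open points were not. SREBF1 and SCD lie at -0.79 and -0.72, and ACSL5, ACLY and ACSS2 at 1.009, 0.67 and 0.59.

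Among the 4 listed ACSL genes, which encode long-chain acyl-CoA synthetases, ACSL5 alone was called. ACSL5 (ENSG00000197142, chromosome 10, 112374018 to 112428380, plus strand) had 11.4, 10.9 and 11.1 TPM in resistant libraries, against 4.94, 5.11 and 5.05 TPM in control libraries, a ratio of 2.21. The groups were far apart and the log2 change was 1.009 ± 0.07, adjusted p 2.96e-05. ACSL3, the most abundant of the family, had 176, 147 and 154 TPM in resistant cells against 125, 148 and 135 TPM in control cells, so its groups overlapped (adjusted p 0.0577). ACSL1 had 57.1 ± 1.06 TPM in resistant cells against 60.2 ± 3.20 TPM in control cells and was not called. ACSL4, which prefers arachidonate, was not called either, with 27.4, 21.0 and 21.0 TPM in resistant cells against 22.8, 29.7 and 26.7 TPM in control cells and overlapping groups. Genes on the opposite strand overlap 8.64% of the exon bases of ACSL5, 6.92% of those of SREBF1 and 17.8%, 10.4% and 9.6% of those of the droplet genes PLIN3, PNPLA2 and LIPE. HILPDA and DGAT1 share 13.2% and 10.9% with same-strand genes. The strand setting of the authors' counting is not known here, so the part of these overlaps was not tested.

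Glycerolipid assembly held 3 members that rose and 1 that fell, of 7, 57.1% beside 48.6% of all tested genes. AGPAT2, a lysophosphatidic acid acyltransferase, fell to 162, 175 and 169 TPM in resistant libraries against 211, 210 and 213 TPM in control libraries (log2 change -0.33, adjusted p 5.66e-04). Its paralogue AGPAT3 rose to 37.6, 40.3 and 39.9 TPM in resistant cells against 32.6, 33.8 and 33.8 TPM in control cells (log2 change 0.23), while its chromosome 21 had a median of 0.3 over 155 genes. DGAT2 and LPIN1, a triglyceride-forming acyltransferase and a phosphatidate phosphatase, rose by 0.35 and 0.26 on the log2 scale. DGAT2 had 7.25, 6.82 and 6.34 TPM in resistant cells against 5.40, 4.75 and 5.21 TPM in control cells, and did not overlap. LPIN1 had 11.4, 10.9 and 10.1 TPM in resistant cells against 8.39, 8.79 and 9.22 TPM in control cells, again apart, and its call was lost in 4 of the 6 fits that left out 1 library. DGAT1, at 65.7 ± 0.934 TPM in resistant cells against 65.4 ± 2.60 TPM in control cells, and LPIN2, at 8.35 ± 1.14 TPM in resistant cells against 9.29 ± 0.437 TPM in control cells, were not called. GPAM, the mitochondrial glycerol-3-phosphate acyltransferase, had 3.90 ± 0.620 TPM in resistant cells against 4.55 ± 0.209 TPM in control cells and was not called.

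In the droplet group of 5, 1 rose and 2 fell, 60% beside 48.6% of all tested genes. PLIN2 (ENSG00000147872, chromosome 9, 19108375 to 19149290, minus strand) had 8.52, 8.996 and 8.59 TPM in resistant libraries, against 7.97, 10.0 and 8.82 TPM in control libraries. The groups overlapped, and the log2 change of -0.03 ± 0.09 gave an adjusted p of 0.803. PLIN3 had 168 ± 8.62 TPM in resistant cells against 157 ± 2.93 TPM in control cells and was not called either. LIPE, hormone-sensitive lipase, rose to 11.9, 11.8 and 11.5 TPM in resistant cells against 7.82, 8.59 and 7.76 TPM in control cells (log2 change 0.49, adjusted p 8.49e-04). PNPLA2, adipose triglyceride lipase, fell to 91.8, 98.0 and 97.7 TPM in resistant cells against 111, 122 and 123 TPM in control cells (log2 change -0.30, adjusted p 0.00274). HILPDA, a PNPLA2 inhibitor, fell to 30.1, 31.4 and 31.2 TPM in resistant cells against 39.2, 41.1 and 43.8 TPM in control cells (log2 change -0.41); chromosome 7 had a median change of -0.285 over 789 genes. The groups of LIPE, PNPLA2 and HILPDA did not overlap.

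Because TPM is per length, paralogues can be set beside each other. The shares below are percents of a family's summed TPM, and with 3 libraries a group an exact permutation test cannot go below 0.1. GPAT3 was 38.8% ± 3.17 of the glycerol-3-phosphate acyltransferases in resistant cells against 24.6% ± 0.436 in control cells, while GPAT4 was 21.0% ± 1.014 in resistant cells against 36.7% ± 0.700 in control cells. AGPAT2 was 60.5% ± 0.395 of its family in resistant cells against 69.8% ± 0.566 in control cells. ELOVL5 was 16.2% in resistant cells against 24.7% in control cells, and ACSL5 was 4.46% in resistant cells against 2.22% in control cells. None of these overlapped between groups (exact permutation p 0.1, 0.121 after adjustment over the 34 shares tested). Most of the 34 shares gave this same p, small shifts included, such as FADS1 at 60.4% in resistant cells against 58.9% in control cells. Shares of a family are parts of the same sum, so they are not independent. The share of ELOVL6, 6.59% in resistant cells against 5.77% in control cells, overlapped.

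**Figure D3:**
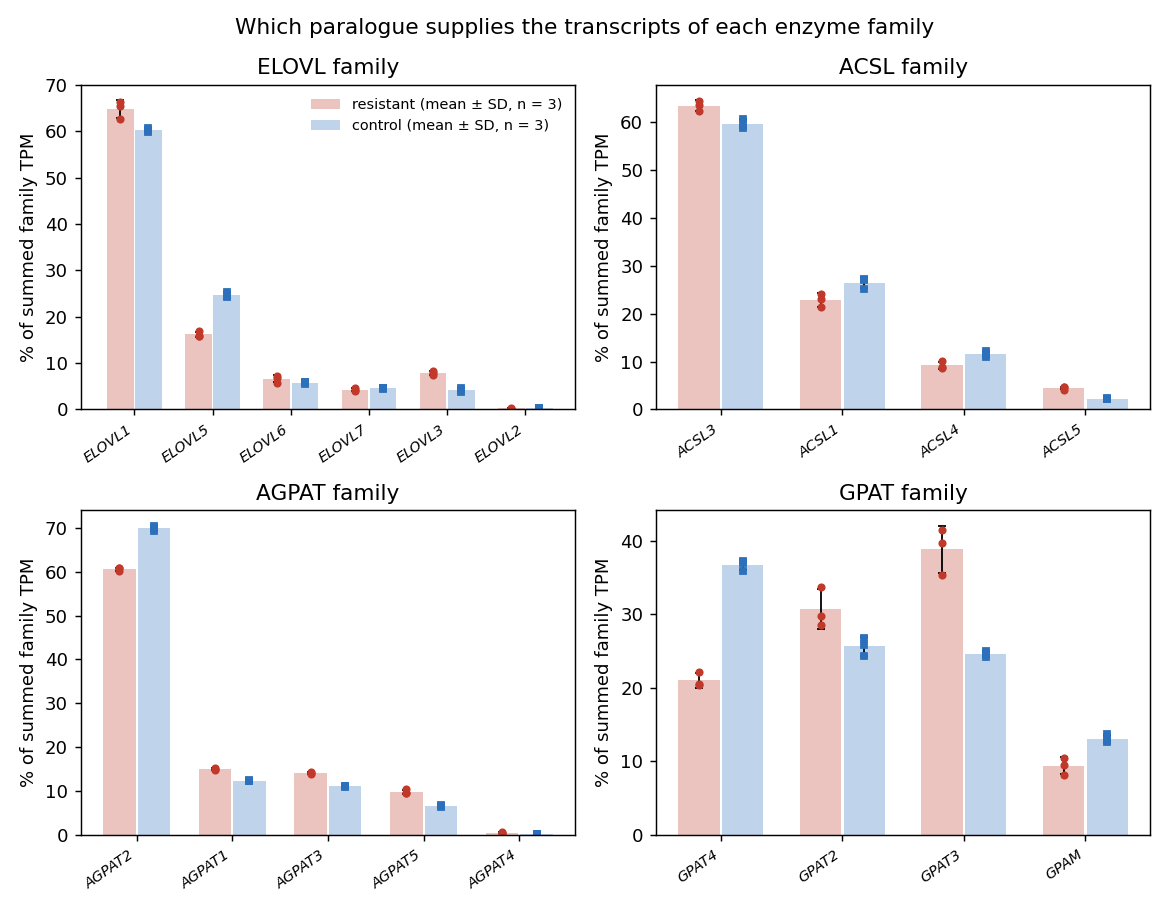
Percent of the summed TPM of the ELOVL, ACSL, AGPAT and GPAT families held by each paralogue; bars are means with SD (n = 3), points are libraries, and resistant bars (red) stand left of control bars (blue). GPAT4 holds 21.0% in resistant against 36.7% in control cells, and GPAT3 38.8% in resistant cells against 24.6% in control cells.

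Windows of 300 bases are printed for the 5 called members that changed by at least 0.5, to set their start regions side by side. They come from the RefSeq promoter table (build GRCh38.p14, 250 bases before the start and 50 after); capitals mark CCAAT and GGGCGG, or ATTGG and CCGCCC where the match is on the other strand.
SREBF1: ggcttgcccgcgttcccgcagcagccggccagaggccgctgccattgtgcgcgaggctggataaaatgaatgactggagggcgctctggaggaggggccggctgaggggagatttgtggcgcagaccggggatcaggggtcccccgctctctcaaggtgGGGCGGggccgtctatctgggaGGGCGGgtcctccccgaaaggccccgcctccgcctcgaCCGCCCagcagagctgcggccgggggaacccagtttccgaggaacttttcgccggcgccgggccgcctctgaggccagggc
SCD: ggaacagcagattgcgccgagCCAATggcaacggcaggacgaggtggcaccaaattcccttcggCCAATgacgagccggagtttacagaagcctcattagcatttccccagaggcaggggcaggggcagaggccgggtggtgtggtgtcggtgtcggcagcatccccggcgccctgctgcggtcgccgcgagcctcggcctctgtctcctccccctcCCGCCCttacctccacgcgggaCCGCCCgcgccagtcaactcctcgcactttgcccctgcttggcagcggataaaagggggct
ACLY: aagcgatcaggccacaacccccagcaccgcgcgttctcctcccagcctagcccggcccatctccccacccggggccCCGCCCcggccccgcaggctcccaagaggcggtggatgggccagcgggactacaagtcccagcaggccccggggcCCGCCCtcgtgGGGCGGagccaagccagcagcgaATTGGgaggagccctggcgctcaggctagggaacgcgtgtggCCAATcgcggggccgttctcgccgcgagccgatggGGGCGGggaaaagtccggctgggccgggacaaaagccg
ACSS2: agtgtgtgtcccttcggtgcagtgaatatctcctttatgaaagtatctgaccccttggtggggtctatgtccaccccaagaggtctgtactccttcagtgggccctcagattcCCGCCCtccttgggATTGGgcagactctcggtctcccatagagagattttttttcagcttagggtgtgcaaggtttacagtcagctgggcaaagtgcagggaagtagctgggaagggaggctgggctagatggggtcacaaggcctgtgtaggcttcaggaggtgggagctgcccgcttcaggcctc
ACSL5: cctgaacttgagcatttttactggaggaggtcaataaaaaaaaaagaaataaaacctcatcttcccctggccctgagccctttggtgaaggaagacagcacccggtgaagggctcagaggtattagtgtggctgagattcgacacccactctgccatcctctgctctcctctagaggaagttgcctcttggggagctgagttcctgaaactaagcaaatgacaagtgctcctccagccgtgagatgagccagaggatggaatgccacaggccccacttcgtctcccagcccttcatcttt
These lie at chr17:17836937-17837236 on the minus strand, chr10:100346983-100347282 on the plus strand, chr17:41918973-41919272 on the minus strand, chr20:34874739-34875038 on the plus strand and chr10:112375018-112375317 on the plus strand. GGGCGG occurs in the windows of SREBF1 and SCD, which fell, and of ACLY and ACSS2, which rose, but not in that of ACSL5, which rose. It was found in a window of 26 of the 29 member genes that the table covers, in 69.8% of their 43 windows and in 45% of all 35116 windows. CCAAT occurs in the windows of SCD, ACLY and ACSS2, and in 41.9% of member windows against 34.6% of all windows. The sterol element, searched as TCACNCCAC, was in a window of ACSL1 and of PNPLA2, 4.65% of member windows against 1.13% of all, and in none of the 5 printed. The E-box CACGTG was in 9.3% of member windows against 7.26% of all, PLIN2 and ELOVL5 among them. ACLY, ACSS2 and ACSL5 have more than 1 listed start, and the first was used. A match describes letters only and is no evidence of binding.

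Of 91 other genes of these pathways, 75 were tested: 26 rose and 22 fell, 64% beside 48.6% of all tested genes. These counts and those by list below include LPL, FABP6 and AGPAT4. The 3 passed the filter only through the group where they were higher, so their calls are no support for a change. Called changes of at least 0.5 on the log2 scale made up 22.7% of them, beside 22.3% of all tested genes. Their median absolute change was 0.229, beside 0.272 among all tested genes. Values are means of 3 libraries, resistant against control. In transcription control, 7 rose and 7 fell of 21. SREBF2, the cholesterol-directed factor, was lower at 107 ± 4.09 TPM in resistant cells against 135 ± 2.82 TPM in control cells (log2 change -0.34, adjusted p 6.15e-04), whereas NR1H3, the liver X receptor alpha, was 38.8 ± 0.946 TPM in resistant cells against 19.8 ± 0.454 TPM in control cells (log2 change 0.93, adjusted p 8.68e-06). NR1H2, the liver X receptor beta, was lower, at 94.7 ± 4.49 TPM in resistant cells against 116 ± 5.74 TPM in control cells (log2 change -0.29). SCAP, the SREBP escort protein, INSIG1, which retains it, and MLX, the ChREBP partner, rose by 0.20, 0.22 and 0.45 on the log2 scale. INSIG2, the paralogue of INSIG1, was lower, with a log2 change of -0.41. In activation and uptake, 4 rose and 3 fell of 10. SLC27A5, a bile acid and fatty acid CoA ligase, rose to 9.06 TPM in resistant cells against 5.30 TPM in control cells. FABP5, a fatty acid carrier, was listed at 0 in all 6 libraries. Whether FABP5 RNA was absent or was missed in the counting was not tested. In supply, 5 rose and 2 fell of 13. In elongation, 1 rose and 3 fell of 8: the elongase ELOVL3 was 23.4 TPM in resistant cells against 11.3 TPM in control cells, the dehydratase HACD4 was 3.40 TPM in resistant cells against 7.17 TPM in control cells and the ketoacyl reductase HSD17B12, at 18.5 ± 1.07 TPM in resistant cells against 19.1 ± 1.93 TPM in control cells, was not called. In droplets and lipolysis 3 rose and 5 fell of 13: PNPLA3, a lipase-family protein of droplets, was 16.7 ± 1.34 TPM in resistant cells against 6.95 ± 0.378 TPM in control cells (log2 change 1.15, adjusted p 3.42e-05), FITM2, which helps form droplets, was 21.0 TPM in resistant cells against 13.8 TPM in control cells, METTL7A was 7.45 TPM in resistant cells against 13.5 TPM in control cells and ABHD5, the PNPLA2 co-activator, at 15.6 ± 0.250 TPM in resistant cells against 14.9 ± 2.16 TPM in control cells, was not called. In glycerolipid assembly 6 rose and 2 fell of 10: GPAT3 was 16.05 ± 1.33 TPM in resistant cells against 8.58 ± 0.126 TPM in control cells, and GPAT4 was 8.69 TPM in resistant cells against 12.8 TPM in control cells.

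**Figure D4:**
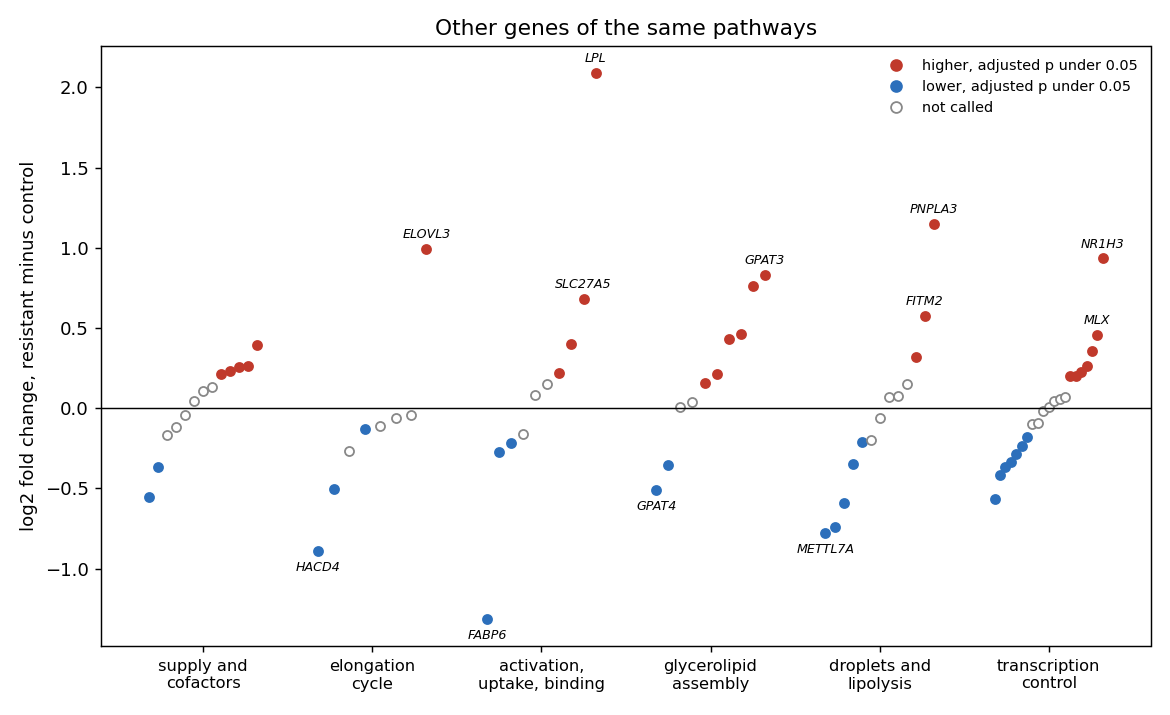
Log2 change, resistant minus control, of the 75 tested related genes, sorted by change within each of 6 lists; filled points were called (red higher, blue lower) and open points were not. PNPLA3, ELOVL3 and NR1H3 lie at 1.15, 0.99 and 0.93 and HACD4 at -0.89. LPL and FABP6 are labelled although picked after their values were seen. LPL, FABP6 and AGPAT4 (not labelled) are drawn as called but passed the filter only through the group where they were higher.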

How the data were processed

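RNA of 3 resistant and 3 control libraries was analysed. The authors deposited TPM, scaled by gene length to a fixed total, for 51537 genes; HISAT2 is named per the submitters' processing notes, while the counter, strand setting, build and annotation are not known here. The identifiers were matched to GENCODE 29, whose GRCh38 coordinates are printed, and 7 related genes were matched by the current symbol of their identifier. TPM keeps no depth, so reads were estimated as TPM times GENCODE exon length over a library's step. The step was the most frequent of the lowest products, tuned so that the most genes came to whole reads. Of genes up to 100 reads, 77.7% to 78.6% in each library did so, and the estimates are approximate. Counting intervals were not computed.

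Genes that reached 1 TPM in 3 or more libraries were fitted with limma 3.58.1 (R 4.3.3, statmod 1.5.0) as log2(TPM + 1) on group, with trend and robust moderation. Tests were two-sided, adjusted by Benjamini-Hochberg over 16077 genes and called below 0.05. Fold changes, resistant minus control on that scale, understate changes of low genes. Members and lists were chosen with earlier results of these data known. Full statistics were given for called members with an absolute log2 change of at least 0.5 and for FASN, SCD, SREBF1, ACLY and PLIN2. Of the related genes, the 8 called with the largest changes at 5 TPM or more were named by rule, plus 8 chosen by function. The paralogues NR1H2 and INSIG2 were added after their values were seen. Alternatives were another pseudocount, 2 other filters, median-ratio scaling, moderation without trend, a replicate block, leaving out each library and limma-voom on estimated reads, added after seeing the data.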

Additional observations from a re-analysis of the deposited data

How the results depend on the processing

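No called member changed sign under the alternatives run, nor did a called related gene named by rule or chosen by function. Of those not called, some did when 1 library was left out, with log2 changes of -0.0081 to 0.085 for ELOVL7 (lowest without resistant replicate 1), -0.019 to 0.037 for DGAT1 (below 0 without control replicate 1 and, at -0.00017, without resistant replicate 3), -0.10 to 0.047 for PLIN2 (above 0 without control replicate 2), -0.044 to 0.15 for ABHD5 (below 0 without control replicate 1) and -0.12 to 0.010 for HSD17B12 (above 0 without control replicate 2). PLIN2 was also above 0, at 0.0056, with limma-voom. Members called numbered 15 to 23 across them, beside 19: 15 with the replicate block (8 higher and 7 lower), 23 with limma-voom on estimated reads (chosen after seeing the data) and 16 to 18 when 1 library was left out. SREBF1, SCD, ACLY, ACSS2 and ACSL5 were called under all. FADS3 was lost without a filter (adjusted p 0.0764), with median-ratio scaling (0.0519), without trend (0.0533), with the block (0.0775) and in every leave-one-out (limma). LPIN1, FADS2 and ELOVL6 were lost with the block (0.077, 0.0559 and 0.0625). LPIN1 was also lost without resistant replicate 1 or 2 or control replicate 1 or 2, FADS2 without resistant or control replicate 3, and ACACB without control replicate 3 (0.0624). SCD5 gained a call without resistant replicate 1, and ACSL3 without resistant or control replicate 2. FADS1 and PLIN3 gained a call with limma-voom. SCD5 and ACSL3 gained a call with the filter at 5 TPM (0.0418 and 0.0353), median-ratio scaling (0.0463 and 0.0203) and limma-voom (0.00993 and 0.00922). The cause was not tested. Same-numbered libraries did not deviate together (r -0.0583, -0.0017 and -0.0163), so the numbers were not used as pairs. Related genes called numbered 22 to 28 higher and 16 to 22 lower. The family shares printed kept their direction when 1 library or the members under the filter were left out; LPIN3 turned to 0.46 percentage points without control replicate 2, against -1.04 with all libraries. The tested member with the fewest reads, MLXIPL, had as few as an estimated 131 in a library, which limits what can be said of it.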

Other observations

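3 of the related genes that the naming rule did not take were picked after their values were seen. LPL, lipoprotein lipase, was 4.44 ± 0.275 TPM in resistant libraries and 0.281 ± 0.079 TPM in control libraries (SD, n = 3 each). It passed the filter only through the resistant libraries, so no p-value is given for it. FABP6, an ileal bile acid binding protein, was 0.153 TPM in resistant libraries against 1.89 TPM in control libraries. It passed the filter only through the control libraries. ACSS3, a mitochondrial acyl-CoA synthetase, was below the filter and not tested, at 0.0521, 0.162 and 0.0337 TPM in resistant libraries against 0.917, 1.16 and 1.12 TPM in control libraries.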
